A study of Mus musculus with 2 samples.

Results

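The genes described here are those of the Wnt signalling pathway that act at or near the cell surface, together with the core proteins that carry the signal to the nucleus. They were chosen by symbol, as the Wnt, Fzd, Sfrp, Dkk and Rspo genes plus Frzb, Wif1, Lrp5, Lrp6, Ror1, Ror2, Ryk, Axin1, Axin2, Lef1, Tcf7, Tcf7l1, Tcf7l2 and Ctnnb1. Of the 29126 entries in the deposited table, 55 entries for 53 genes met this rule. Wnt5b has 3 entries and every other gene has 1. Fzd1 and Fzd9 were not analysed here.

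The data are strand-specific mRNA-seq of mouse embryonic fibroblasts (MEFs), with a single Dnmt1+/+ and a single Dnmt1-/- library. Dnmt1 copies DNA methylation onto new strands when DNA is replicated. Both copies of the gene in the mutant line are a hypomorphic (reduced-function) allele, and neither line has p53. The strain is labelled unknown, and each genotype is a single cell line, so genotype and any other difference between the lines, anatomic origin included, cannot be told apart. The comparison asks how RNA levels differ in cells that have lost most of their DNA methylation. With 1 library per genotype the spread between replicates is unknown, so the differences below are untested and carry no p-value.

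Wnt proteins are secreted, lipid-modified glycoproteins that bind Frizzled receptors together with a co-receptor, Lrp5 or Lrp6. In the canonical branch this stabilises β-catenin, the product of Ctnnb1, which otherwise is marked for destruction on a scaffold of Axin, and β-catenin then activates target genes through the Tcf and Lef factors. Secreted Sfrp, Frzb, Wif1 and most Dkk proteins restrain the signal outside the cell, R-spondins strengthen it, and Ror and Ryk receptors serve branches that do not depend on β-catenin. In the mesenchyme of the embryo, from which fibroblasts derive, the pathway is known for roles in limb, bone, fat and skin development.

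Levels are given as RPKM, the read number of a transcript divided by its length and by the size of the library, so that levels of different genes can be set side by side. A change is the difference of log2(RPKM + 0.1) between the Dnmt1-/- and the Dnmt1+/+ library, a scale that understates the change of low genes. An entry was kept if Cuffdiff gave it the status OK, it carried a symbol, and it reached 1 RPKM in either library. This left 11244 genes in all, whose median log2 change was -0.14, and 30 entries for 28 of the Wnt pathway genes. Of the kept genes, 952 (8.47%) were past 2-fold in the higher direction in Dnmt1-/- MEFs and 1225 (10.9%) in the lower direction. With the median change subtracted these counts were 1092 and 965. Dnmt1 itself had 65.2 RPKM in Dnmt1+/+ and 14.5 in Dnmt1-/- MEFs.

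The cell type of the label was checked against marker genes. All 10 fibroblast markers listed reached 1 RPKM in Dnmt1+/+ and 9 did so in Dnmt1-/-, with Vim at 2269 and 1873 RPKM and Col1a1 at 1448 and 898. Of these 10, 4 lay more than 2-fold below in Dnmt1-/-, among them Thy1, from 4.84 to 0.129 RPKM, and Postn, from 176.6 to 13.7, and 2 more than 2-fold above, S100a4 and Pdgfra. The 6 epithelial markers summed to 0.363 RPKM in Dnmt1+/+ and 2.19 in Dnmt1-/-, where most of it was Krt14 at 1.46, and Epcam and Cdh1 were at most 0.203 in either library. The 4 haematopoietic markers summed to 2.11 and 6.88 RPKM, with Cd68 at 0.596 and 3.63, Cd14 at 1.51 and 3.23, and Ptprc, which defines these cells, listed at 0 in both. The 4 endothelial and 4 pluripotency markers stayed under 1 RPKM in each library. These marker lists moved with the genotype, and their part in the changes of the Wnt pathway genes was not tested. In bulk RNA a smaller number of cells that make a transcript and less of it per cell cannot be told apart.

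Past 2-fold, the ligands Wnt6, Wnt10a and Wnt5b were higher in Dnmt1-/- MEFs, and the antagonists Sfrp1 and Sfrp2 and the R-spondin Rspo2 were lower. Of the 30 entries kept, 8 (26.7%) lay above 2-fold in Dnmt1-/- and 5 (16.7%) below it, against the 8.47% and 10.9% of all kept genes given above. The 8 higher entries belong to 6 genes, Wnt6, Wnt10a, Wnt5b, Fzd5, Frzb and Tcf7, and with Wnt5b counted once they are 21.4% of 28 genes. The 5 lower genes were Fzd4, Sfrp1, Sfrp2, Rspo2 and Lef1. Wnt6, Wnt10a, Frzb, Tcf7 and 2 of the 3 Wnt5b entries reached 1 RPKM only in Dnmt1-/-, and Fzd4 and Sfrp1 only in Dnmt1+/+. The minimum thus fixed the direction of these entries. With a mean RPKM of at least 1 as the minimum, 6 of 27 entries (22.2%) were higher and 5 (18.5%) lower. The shares of all genes at that setting were 7.43% and 9.89%. Wnt10a, Tcf7, 2 of the 3 Wnt5b entries, Fzd4 and Sfrp1 are under 1 RPKM in one library. A mean of at least 1 thus fixed their direction too. The median log2 change of the 30 entries was 0.08, beside -0.14 for all kept genes, and the quartiles of the entries lay at -0.74 and 1.04, beside -0.56 and 0.27 for all kept genes. With no threshold, 18 of the 30 entries had the higher RPKM in Dnmt1-/-, beside 40.4% of all kept genes. With a pseudocount of 1, 7 entries (23.3%) were higher, beside 6.96% of all kept genes, and 2 (6.67%) were lower, a share no larger than the 7.12% of all kept genes. At a 1.5-fold threshold 9 entries were higher and 10 lower, 30% and 33.3%, beside 14.1% and 23.7% of all kept genes. At 4-fold 7 were higher and 0 lower, beside 4.45% and 3.44%. A raised minimum of 5 RPKM left 5 of 20 entries (25%) higher and 2 (10%) lower, beside 6.14% and 8.04% of all genes at that minimum. The higher ones were Wnt10a, Fzd5 and the 3 entries of Wnt5b. All of these were under 5 RPKM in Dnmt1+/+, so this minimum fixed their direction as well. The same holds for Rspo2 among the lower ones, at 3.79 RPKM in Dnmt1-/-.

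**Figure D1:**
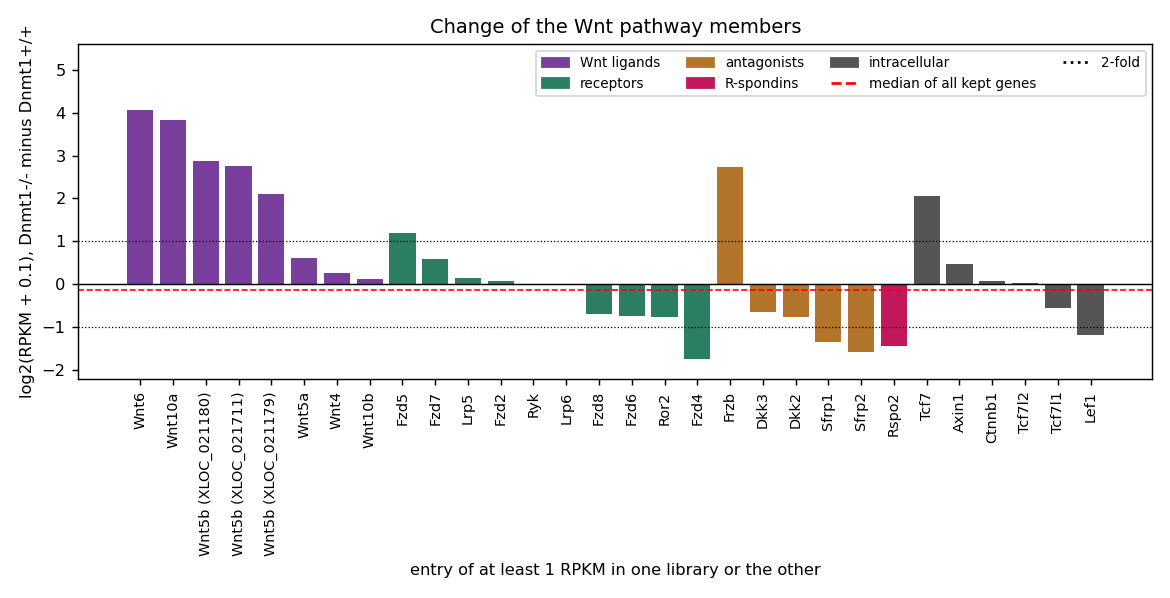
Bars show the log2(RPKM + 0.1) difference, Dnmt1-/- minus Dnmt1+/+, of the 30 Wnt pathway entries kept, grouped by role, with dotted lines at 2-fold and a dashed line at the median of all kept genes. All 8 ligand entries are above 0 and 5 of them are past 2-fold, from 2.10 to 4.06. Below 0 lie 4 of the 5 antagonist entries and the R-spondin. Of all kept genes 40.4% lie above 0 and 59.6% below it. Wnt6, Wnt10a, Wnt5b (XLOC_021180 and XLOC_021711) and Frzb met the minimum only through Dnmt1-/-, and Sfrp1 and Dkk2 only through Dnmt1+/+. The minimum fixed the direction of these bars.

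The sequence just before the RefSeq start of transcription is shown for 5 of the genes past 2-fold, 3 higher (Wnt6, Frzb, Fzd5) and 2 lower (Sfrp2, Fzd4), as Dnmt1 maintains methylation at CpG sites. They are the genes past 2-fold that have exactly 1 promoter in the table used. Each run is the 250 bases upstream of the RefSeq start, 5′ to 3′ on the strand of the gene, with each CpG in capitals. The sequences were taken from RefSeq and each matched a single place in the NCBIM37 (mm9) genome, whose coordinates are given. For Frzb, 229 of these bases lie inside the annotated gene, which starts further upstream in the annotation used here.
Wnt6, chr1:74818216-74818465, plus strand: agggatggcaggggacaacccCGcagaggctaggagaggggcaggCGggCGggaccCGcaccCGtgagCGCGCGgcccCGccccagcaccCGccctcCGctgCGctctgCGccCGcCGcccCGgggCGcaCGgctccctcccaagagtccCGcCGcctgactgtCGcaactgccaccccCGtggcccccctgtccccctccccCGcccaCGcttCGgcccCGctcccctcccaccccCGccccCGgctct
Frzb, chr2:80287554-80287803, minus strand: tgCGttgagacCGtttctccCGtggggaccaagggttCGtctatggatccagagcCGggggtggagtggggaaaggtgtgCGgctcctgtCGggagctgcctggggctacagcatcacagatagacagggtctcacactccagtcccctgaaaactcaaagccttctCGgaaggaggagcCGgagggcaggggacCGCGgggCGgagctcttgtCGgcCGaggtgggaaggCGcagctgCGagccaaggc
Fzd5, chr1:64784325-64784574, minus strand: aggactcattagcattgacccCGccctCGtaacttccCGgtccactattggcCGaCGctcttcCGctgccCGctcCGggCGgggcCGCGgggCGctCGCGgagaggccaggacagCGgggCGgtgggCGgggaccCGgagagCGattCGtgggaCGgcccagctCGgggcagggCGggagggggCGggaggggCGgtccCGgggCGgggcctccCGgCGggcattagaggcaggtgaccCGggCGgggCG
Sfrp2, chr3:83569993-83570242, plus strand: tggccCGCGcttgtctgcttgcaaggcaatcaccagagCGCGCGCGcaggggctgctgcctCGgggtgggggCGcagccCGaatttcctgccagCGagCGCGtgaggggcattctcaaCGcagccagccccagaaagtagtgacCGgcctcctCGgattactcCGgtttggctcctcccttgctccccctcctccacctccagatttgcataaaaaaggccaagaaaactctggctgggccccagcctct
Fzd4, chr7:96552626-96552875, plus strand: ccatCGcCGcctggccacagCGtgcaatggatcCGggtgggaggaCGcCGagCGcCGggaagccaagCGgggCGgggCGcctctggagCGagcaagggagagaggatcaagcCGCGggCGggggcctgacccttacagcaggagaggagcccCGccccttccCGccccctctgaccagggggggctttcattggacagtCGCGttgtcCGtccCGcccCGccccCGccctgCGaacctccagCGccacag
These promoters hold 28 CpGs for Wnt6, 16 for Frzb, 32 for Fzd5, 16 for Sfrp2 and 25 for Fzd4. The counts of the genes that were higher and of those that were lower overlap. None of the 5 contains CTTTGAT or its reverse complement ATCAAAG, a core sequence bound by Tcf and Lef factors, which 3.21% of the 32851 promoters in the table contain in the same window. DNA methylation itself was not analysed here. Wnt5b, Tcf7 and Lef1 have several promoters each in the table and are not shown, and at least 1 of the 3 for Wnt5b holds the motif. Wnt10a, Sfrp1 and Rspo2 are named only.

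Among the ligands, 21 entries for 19 genes were found, of which 8 entries for 6 genes were kept. Of these 8 entries 5 were past 2-fold, all in the higher direction, and the other 3 had log2 changes from 0.13 to 0.61. Of all kept genes 8.47% were past 2-fold in the higher direction and 10.9% in the lower. Wnt6, Wnt10a and 2 of the Wnt5b entries were under 1 RPKM in Dnmt1+/+ and met the minimum only through the Dnmt1-/- library, so their direction was fixed by the minimum. Of the 8 ligand entries with status OK under the minimum, 4 had the higher RPKM in Dnmt1-/- and 4 in Dnmt1+/+. Wnt10b, a ligand of the canonical branch known for restraining fat cell formation, had the highest single RPKM of the ligands in both libraries, 22.8 in Dnmt1+/+ and 25 in Dnmt1-/-. Its change was 0.13 on the log2 scale.

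Wnt10a, a close relative of Wnt10b with roles in skin, hair and teeth, stood at 0.634 RPKM in Dnmt1+/+ and at 10.3 in Dnmt1-/-, a 16.2-fold difference in RPKM and a log2 change of 3.82. It lies on chromosome 1 (chr1:74838593-74850749, plus strand). Wnt6, which is expressed in surface ectoderm of the embryo, was at 0.00831 RPKM in Dnmt1+/+ and at 1.71 in Dnmt1-/-, a log2 change of 4.06, the highest of the 30 entries. Wnt10a thus went from the 25.1 percentile of the entries with status OK and a symbol to the 62.1 percentile, and Wnt6 from the 7.94 to the 33.3 percentile.

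Wnt6 and Wnt10a are neighbours on chromosome 1, both on the plus strand, with 6699 bases between the end of the Wnt6 entry and the start of the Wnt10a entry. The entries within 100 kb of the pair give the context. Upstream of Wnt6, Prkag3 was at 0.0448 RPKM in Dnmt1+/+ against 0.683 in Dnmt1-/-. Cyp27a1 was at 0.0182 and 0.851. Both were more than 2-fold higher but stayed under 1 RPKM. Ttll4, the next gene out, was at 8.52 and 8.73 RPKM. A short unnamed entry of 148 bases, inside the annotated span of Wnt10a and just before the start of its entry, had 20.8 RPKM in Dnmt1-/- and was listed at 0 in Dnmt1+/+. Of the 2375 unnamed entries of 200 bases or less with status OK, 208 were listed at 0 in Dnmt1+/+ only and 78 in Dnmt1-/- only. The median RPKM of these 2375 entries was 231 in Dnmt1+/+ and 198 in Dnmt1-/-, so 20.8 RPKM is low for an entry this short. Downstream of Wnt10a no entry within the window exceeded 0.0393 RPKM in either library. The higher RNA in Dnmt1-/- MEFs spanned neighbouring genes from Cyp27a1 to Wnt10a and was not seen at Ttll4.

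**Figure D2:**
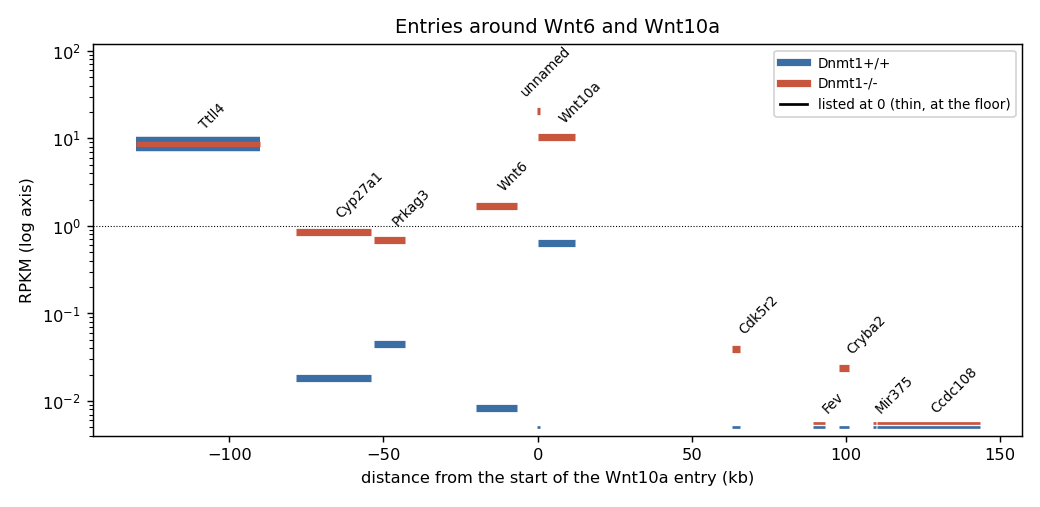
Each horizontal bar is an entry drawn at its distance in kb from the start of the Wnt10a entry and at its RPKM on a log axis, in the Dnmt1+/+ (blue) and Dnmt1-/- (red) library, with thin bars at the floor for values listed at 0. Between Cyp27a1 and Wnt10a the red bars lie above the blue ones by more than 2-fold, and at Ttll4 both are near 8.5 to 8.7 RPKM.

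Wnt5b, a ligand of the branches that do not depend on β-catenin and known from cartilage growth plates, has 3 entries that share the locus chr6:119382549-119494365 with Fbxl14. The first, XLOC_021179, was at 3.05 RPKM in Dnmt1+/+ and 13.4 in Dnmt1-/-. The second, XLOC_021180, was at 0.988 and 7.87 RPKM, and the third, XLOC_021711, at 0.953 and 7.04. All 3 were more than 2-fold higher, with log2 changes of 2.10, 2.87 and 2.76. Fbxl14 was at 6.26 and 11.2 RPKM, within 2-fold.

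The strand that each of the 3 entries measures is not stated. The annotation puts Wnt5b on the minus strand and Fbxl14 on the plus strand, and the deposited table has no strand column. The 20 annotated chromosome 6 entries numbered nearest to XLOC_021711 are all on the minus strand, and the 20 nearest to XLOC_021179 and to XLOC_021180 are all on the plus strand. Whether the latter entries hold RNA from the strand opposite to Wnt5b was not tested. XLOC_021711 alone gave a 7.38-fold difference, and it met the minimum only through Dnmt1-/-. Of the 3 entries, only XLOC_021179 was above 1 RPKM in both libraries.

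Wnt5a, the relative of Wnt5b needed for the outgrowth of limbs and other appendages, was at 7.09 RPKM in Dnmt1+/+ and 10.8 in Dnmt1-/-, a log2 change of 0.61. Wnt4, best known from kidney and the female reproductive tract, was at 2.47 and 3 RPKM. Both stayed within 2-fold.

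Summed over all 21 ligand entries, RPKM was 39.4 in Dnmt1+/+ and 81.0 in Dnmt1-/-. Wnt10b made up 57.9% of this sum in Dnmt1+/+ and 30.9% in Dnmt1-/-. The 3 Wnt5b entries together went from 4.99 to 28.3 RPKM. Taking Wnt5b from XLOC_021711 alone, the ligand sum was 35.4 and 59.7 RPKM, and without Wnt5b it was 34.4 and 52.7. The sum was thus larger in Dnmt1-/- in each of these 3 counts, by 2.05-fold, 1.69-fold and 1.53-fold.

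The remaining ligands were low or not detected. Wnt7a, a ligand of limb and nervous system patterning, had 0.536 RPKM in Dnmt1-/- and was listed at 0 in Dnmt1+/+. Wnt2, named here after its values were seen, was at 0.0697 and 0.321 RPKM. Wnt1 and Wnt7b also had the higher value in Dnmt1-/-, of 0.0940 and 0.346 RPKM. The other 4 ligands under the minimum had the lower value in Dnmt1-/-. Wnt9a was at 0.477 and 0.289 RPKM, Wnt11 at 0.213 and 0.109, Wnt2b at 0.185 and 0.102, and Wnt16 at 0.163 and 0.0503. Wnt3, Wnt3a, Wnt8b and Wnt9b were listed at 0 in both libraries, and Wnt8a had 0.0106 RPKM in Dnmt1+/+ with 0 listed for Dnmt1-/-, all without a test by Cuffdiff.

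**Figure D3:**
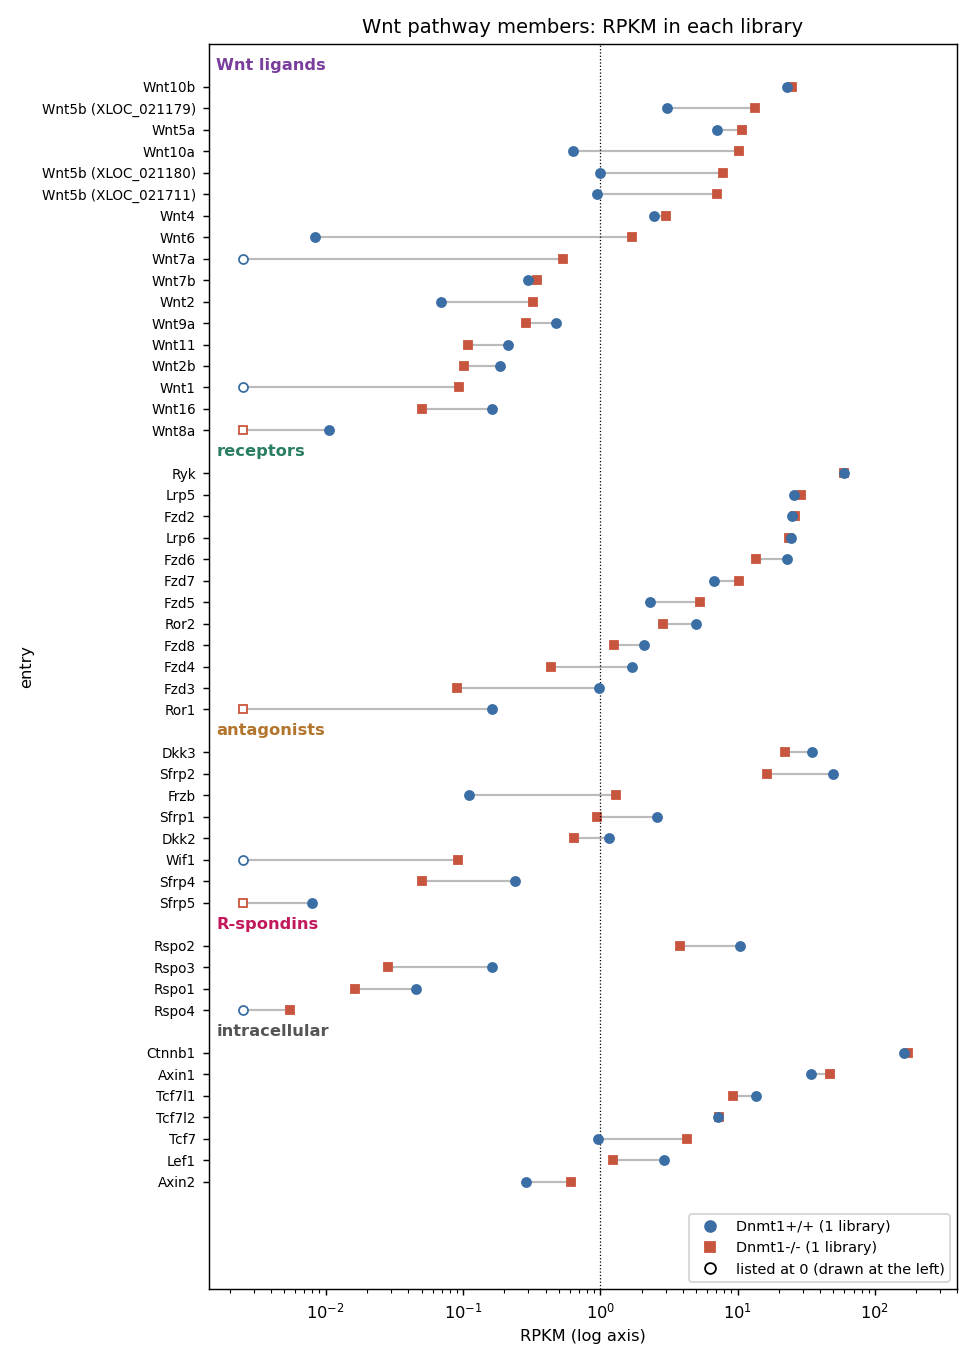
RPKM on a log axis of every Wnt pathway entry above 0 in at least 1 library, as circles for Dnmt1+/+ and squares for Dnmt1-/-, sorted within each role by the Dnmt1-/- value, with open symbols at the left for values listed at 0. Ctnnb1, Ryk, Lrp5, Lrp6, Fzd2 and Wnt10b show nearly overlapping symbols above 20 RPKM, and the longest lines belong to genes that are near or below 1 RPKM in one library or the other.

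Most receptors lay within 2-fold, as did most of all kept genes. The counts of 1 of 10 in each direction are near the 8.47% higher and 10.9% lower of all kept genes. Of 13 receptor and co-receptor genes 10 were kept. Fzd5 was past 2-fold in the higher direction, Fzd4 in the lower, the other 8 lay within it, and the median log2 change of the 10 was -0.01. The co-receptors of canonical signalling were close in both libraries, with Lrp5 at 26.0 RPKM in Dnmt1+/+ against 28.9 in Dnmt1-/-. Lrp6 was at 24.4 and 23.9. Ryk, a receptor related to tyrosine kinases, was the most abundant receptor, at 59.3 and 59.8 RPKM.

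Among the Frizzled genes, Fzd2 was the highest in both libraries, at 25 RPKM in Dnmt1+/+ and 26.2 in Dnmt1-/-. Fzd6 was at 22.9 and 13.6 RPKM, Fzd7 at 6.79 and 10.2, and Fzd8 at 2.09 and 1.26. None of these was past 2-fold. Fzd5, on chromosome 1 (chr1:64777132-64784324, minus strand), was at 2.30 RPKM in Dnmt1+/+ and 5.36 in Dnmt1-/-, a 2.33-fold difference. Fzd4, known as the receptor of Norrin in blood vessels of the retina, was at 1.72 and 0.441 RPKM, 3.89-fold lower in Dnmt1-/-. With a pseudocount of 1 neither was past 2-fold, with log2 changes of 0.95 for Fzd5 and -0.91 for Fzd4. The order by level of the 6 Frizzled genes kept was Fzd2, Fzd6, Fzd7, Fzd5, Fzd8, Fzd4 in both libraries.

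Ror2, a receptor for Wnt5a needed in cartilage and limb development, was at 4.96 RPKM in Dnmt1+/+ and 2.85 in Dnmt1-/-, a log2 change of -0.78. Its relative Ror1 had 0.162 RPKM in Dnmt1+/+ with 0 listed for Dnmt1-/-. Fzd3, named after its values were seen, was just under the minimum, at 0.972 RPKM in Dnmt1+/+ against 0.0897 in Dnmt1-/-. Fzd10 was listed at 0 in both. Without a minimum, 4 of the 12 receptor genes with status OK were thus past 2-fold, Fzd5 in one direction and Fzd3, Fzd4 and Ror1 in the other. At that setting 9.92% of all genes were past 2-fold in the higher direction and 11.1% in the lower.

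Of 10 secreted antagonists 5 were kept, of which Sfrp1 and Sfrp2 were past 2-fold in the lower direction and Frzb in the higher. Of all kept genes 8.47% were higher and 10.9% lower. Sfrp1 and Dkk2 met the minimum only through Dnmt1+/+ and Frzb only through Dnmt1-/-, so the minimum fixed their direction. The median log2 change of the 5 antagonists was -0.77, the value of Dkk2. Sfrp2, a decoy that binds Wnt proteins and is abundant in fibroblasts, was the highest antagonist in Dnmt1+/+ at 49.2 RPKM and stood at 16.4 in Dnmt1-/-, a 3.01-fold difference and a log2 change of -1.58. Its entry (chr3:83576075-83578298) covers 27.1% of the annotated gene, at the 3′ end, so the value rests on a part of the transcript. Sfrp1, a related decoy, was at 2.58 RPKM in Dnmt1+/+ and 0.948 in Dnmt1-/-, a log2 change of -1.35 that became -0.88 with a pseudocount of 1.

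Dkk3, a divergent member of the Dickkopf family, had 34.8 RPKM in Dnmt1+/+ against 22.3 in Dnmt1-/-. Dkk2, which binds Lrp5 and Lrp6, was at 1.16 and 0.641. Both were lower but within 2-fold. Frzb, an antagonist related to the Sfrp proteins and known from cartilage, went the other way, from 0.110 RPKM in Dnmt1+/+ to 1.30 in Dnmt1-/-, an 11.8-fold difference. The change was 2.73 on the log2 scale.

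Dkk3 took the place of Sfrp2 as the most abundant gene of the antagonist group in Dnmt1-/-. There it made up 53.5% of the summed RPKM of the group, while Sfrp2 made up 55.8% in Dnmt1+/+. The group was set by gene family, and whether Dkk3 acts as an antagonist here was not tested. The sum over the 10 genes was 88.1 RPKM in Dnmt1+/+ and 41.7 in Dnmt1-/-, 2.12-fold lower. The ligand sum and the antagonist sum therefore differed between the libraries in opposite directions. Much of the antagonist difference came from Sfrp2, at 49.2 RPKM in Dnmt1+/+ and 16.4 in Dnmt1-/-, whose entry covers only a part of the gene. Of the extracellular inhibitors outside this sum, Notum was higher in Dnmt1-/- (0.643 and 12.3 RPKM) and Apcdd1 lower (3.64 and 1.47). Whether the sums are linked was not tested. Dkk1 and Dkk4 were listed at 0 in both libraries, and Wif1, Sfrp4 and Sfrp5 reached at most 0.237 RPKM in either.

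**Figure D4:**
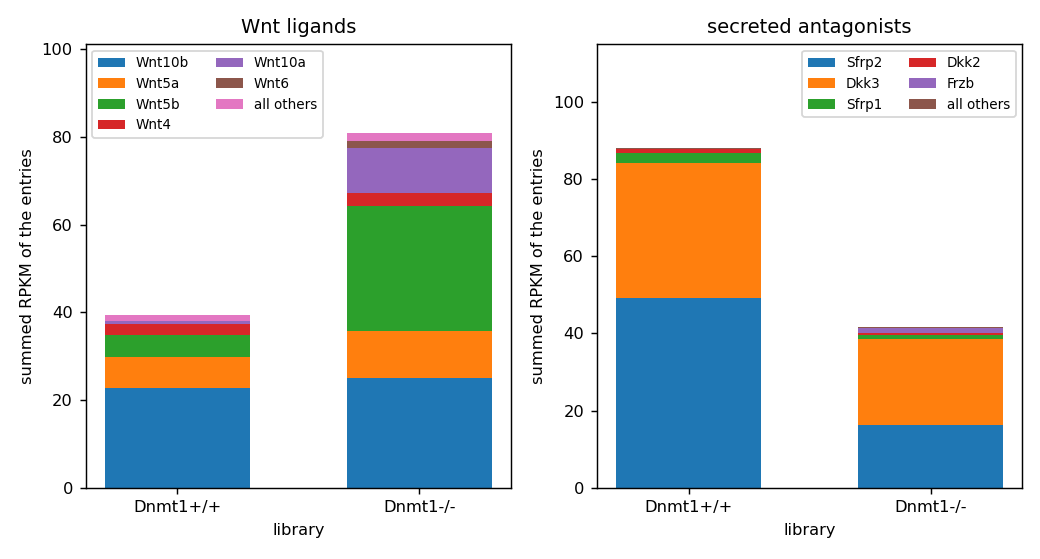
Stacked bars give the summed RPKM of the 21 Wnt ligand entries (left, the 3 Wnt5b entries added together) and of the 10 secreted antagonists (right) in each library, split by gene. The ligand bar is 39.4 in Dnmt1+/+ and 81.0 in Dnmt1-/- with Wnt5b and Wnt10a the widened parts. The antagonist bar is 88.1 and 41.7 with Sfrp2 the narrowed part. Whether the Wnt5b entries XLOC_021179 and XLOC_021180 hold RNA from the strand opposite to Wnt5b was not tested.

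R-spondins bind Lgr receptors and keep Frizzled proteins at the cell surface. Rspo2, which is needed for limb and lung development, was the one R-spondin with a sizeable level, 10.4 RPKM in Dnmt1+/+ and 3.79 in Dnmt1-/-, a 2.75-fold difference and a log2 change of -1.43. It made up 98.0% of the summed RPKM of the 4 R-spondins in Dnmt1+/+ and 98.7% in Dnmt1-/-. Rspo3, named after its values were seen, was at 0.164 and 0.0282 RPKM, and Rspo1 and Rspo4 stayed below 0.05 RPKM.

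Inside the cell, Ctnnb1, Axin1, Tcf7l1 and Tcf7l2 lay within 2-fold, while Tcf7 was higher and Lef1 lower in Dnmt1-/-. Of the 6 genes kept, 1 was thus past 2-fold in each direction, beside 8.47% higher and 10.9% lower of all kept genes. Ctnnb1, which encodes β-catenin, had the highest level of all 55 entries, 163.3 RPKM in Dnmt1+/+ and 173.4 in Dnmt1-/-, a log2 change of 0.09. Axin1, the scaffold on which β-catenin is degraded, was at 34.2 and 47.1 RPKM. Axin2, a feedback inhibitor and a widely used readout of β-catenin activity, was under the minimum in both libraries, at 0.289 and 0.611 RPKM, and is named after its values were seen.

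Of the 4 Tcf and Lef genes, Tcf7 was at 0.955 RPKM in Dnmt1+/+ and 4.27 in Dnmt1-/-, a 4.47-fold difference. Lef1 was at 2.92 and 1.24, 2.37-fold lower. Both encode factors that bind β-catenin and are best known from T cell and hair development. Lef1 was no longer past 2-fold with a pseudocount of 1, where its log2 change was -0.81. Tcf7l1, known mostly as a repressor, was the most abundant of the 4, at 13.6 and 9.22 RPKM, and Tcf7l2, linked to gut epithelium and glucose control, was at 7.21 and 7.38. The order by level was Tcf7l1, Tcf7l2, Lef1, Tcf7 in Dnmt1+/+ and Tcf7l1, Tcf7l2, Tcf7, Lef1 in Dnmt1-/-.

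**Figure D5:**
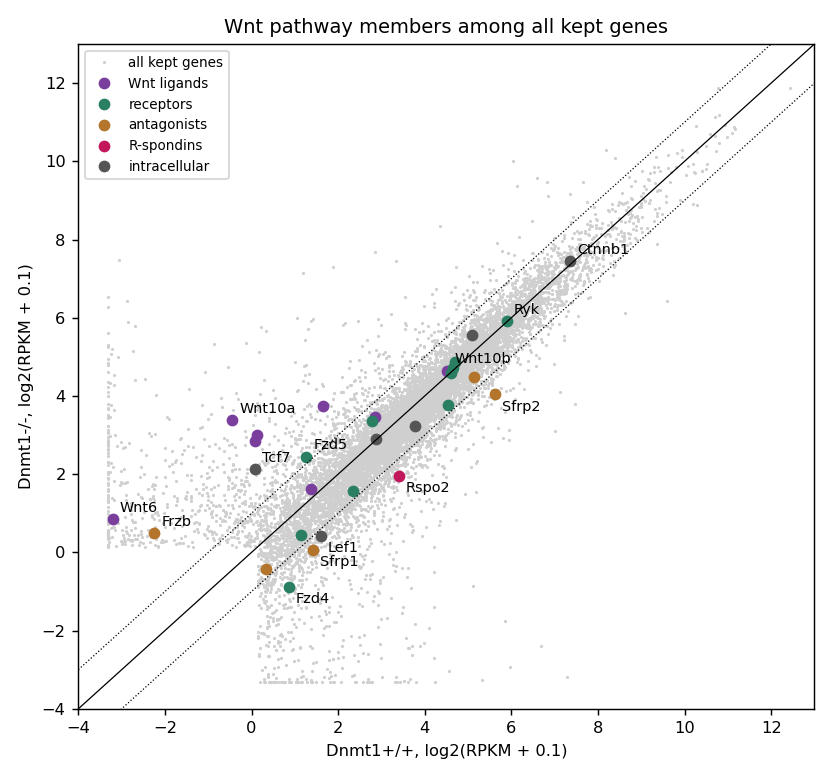
The log2(RPKM + 0.1) value in Dnmt1+/+ (horizontal) and Dnmt1-/- (vertical) of the 11244 kept genes in grey and the 30 Wnt pathway entries in colour by role, with a solid line at equality and dotted lines at 2-fold. The most abundant entries, Ctnnb1 and Ryk, lie on the line of equality, and the higher ligands lie above the upper dotted line at low Dnmt1+/+ values.

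Without the minimum RPKM, 45 entries had status OK, and 10 (22.2%) of these lay above 2-fold and 9 (20%) below it, beside 9.92% and 11.1% of all 14865 entries with status OK and a symbol. The 15 entries that this adds lie below 1 RPKM in both libraries, with at most 0.972 RPKM in Dnmt1+/+ and 0.611 in Dnmt1-/-. Of these 15, 7 had the higher value in Dnmt1-/- and 8 in Dnmt1+/+. The 10 entries with another status include the 7 listed at 0 in both libraries.

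Other genes of the pathway were taken from a list of 52, of which 51 had an entry and 39 entries were kept. Of these 39, 2 (5.13%) lay above 2-fold in Dnmt1-/- and 4 (10.3%) below it, shares no larger than the 8.47% and 10.9% of all kept genes, and their median log2 change was -0.10. Notum, a secreted enzyme that inactivates Wnt proteins by removing their lipid, was at 0.643 RPKM in Dnmt1+/+ and 12.3 in Dnmt1-/-, a log2 change of 4.06. Lgr6, an R-spondin receptor, was at 0.0461 and 2.01 RPKM. Notum and Lgr6 reached 1 RPKM only in Dnmt1-/-, so the minimum fixed their direction.

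Nkd1, a feedback inhibitor that binds Dishevelled, was at 2.89 RPKM in Dnmt1+/+ and 0.304 in Dnmt1-/-, the lowest log2 change of the 39, at -2.89. It reached 1 RPKM only in Dnmt1+/+, so the minimum fixed its direction. Apcdd1, a membrane-bound inhibitor, was at 3.64 and 1.47 RPKM. Daam2, which links Dishevelled to the actin cytoskeleton, was at 19.5 and 4.70, and Wisp2, a secreted protein of the CCN family, at 17.4 and 5.89. The general target genes Ccnd1, at 79.5 and 76.2 RPKM, and Myc, at 36.1 and 48.5, stayed within 2-fold.

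Wls, which carries Wnt proteins to the cell surface, was abundant in both libraries (93.4 RPKM in Dnmt1+/+, 77.1 in Dnmt1-/-), and Porcn, which attaches their lipid, was at 1.11 and 1.65.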

How the data were processed

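The data are 1 library of Dnmt1+/+ and 1 library of Dnmt1-/- MEFs, grouped by the genotype in the labels. According to the study's methods and the submitters' processing notes, strand-specific reads were mapped to mm9 with TopHat, transcripts were assembled with Cufflinks and abundance was computed with Cuffdiff. The authors deposited 1 RPKM value per entry and library with a status. Program versions, any further scaling between libraries and the use of strand in assigning reads are not given in the sources used here. These values are not read counts. The study lists the mapped reads of each library, but the depth per entry was not worked out here and intervals are not given. The file held no fold changes or p-values.

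Entries with status OK, a symbol and 1 RPKM or more in either library were kept, and log2(RPKM + 0.1) was differenced. A member was called past a 2-fold difference, and all kept genes gave the background share. The call was checked on simulated data. Members, roles and gene lists were chosen with earlier results of these data known. All members kept are named, the rest by count, range or as stated. The alternatives were pseudocounts of 1 and 0.01, no minimum, a mean RPKM of at least 1, a minimum of 5, subtraction of the median change, upper-quartile scaling, thresholds of 1.5-fold and 4-fold and, added after the data were seen, entries that share a symbol and locus averaged. Promoters were found in RefSeq (GRCm38.p6) for 36 of the 53 genes, too few for a comparison of sequence over the set. Coordinates are 1-based, in NCBIM37 (mm9). Python 3.11.15, numpy 2.4.6, pandas 2.3.3 and matplotlib 3.10.9 were used.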

Additional observations from a re-analysis of the deposited data

How the results depend on the processing

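With 1 library per genotype no replicate could be left out, and no paired analysis was possible because there are no replicates to pair. All 30 kept entries stayed on the same side of 2-fold with a pseudocount of 0.01, with the plain log2 ratio, after subtraction of the median change and after upper-quartile scaling. Values near 0 could change sign, as for Lrp6, at -0.03 and, with the median subtracted, 0.11. With a pseudocount of 1, 4 of the 30 entries dropped below 2-fold (Fzd4, Fzd5, Sfrp1 and Lef1), which left 2 lower members in place of 5, 0 receptors past 2-fold and 1 intracellular gene (6.96% of all kept genes were then higher and 7.12% lower). The count of 8 higher members was 5 with a minimum of 5 RPKM, where 2 were lower. At that minimum 1 receptor, 1 antagonist, 0 intracellular genes, 1 higher and 2 lower other pathway genes were past 2-fold. Of all genes at that minimum 6.14% were higher and 8.04% lower. Without a minimum 9 members were lower, and 4 receptors and 2 R-spondins were past 2-fold (9.92% of all genes were then higher and 11.1% lower). At a 1.5-fold threshold (14.1% of all kept genes higher, 23.7% lower) 10 members were lower, 5 receptors and 5 antagonists were past it, and of the other pathway genes 4 were higher and 10 lower. At 4-fold (4.45% and 3.44%) 0 members were lower and 7 higher, and 0 receptors, 1 antagonist, 0 R-spondins, 1 intracellular gene and 2 lower other pathway genes were past it. With the Wnt5b entries averaged, 3 ligands were past 2-fold in place of 5 entries. After subtraction of the median change the median of the members was 0.22 in place of 0.08. Wnt6, Wnt10a, Frzb, Tcf7, Fzd4, Sfrp1, Dkk2 and 2 of the 3 Wnt5b entries have less than 1 RPKM in one library. Their depth in reads was not worked out here.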

Other observations

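Of the other pairs of neighbouring ligand genes, none had both genes more than 2-fold higher in Dnmt1-/-. Wnt1, on the plus strand 11297 bases from the Wnt10b entry, had 0.0940 RPKM in Dnmt1-/- and 0 listed for Dnmt1+/+, while Wnt10b had 22.8 in Dnmt1+/+ against 25 in Dnmt1-/-. An unnamed entry of 159 bases between Wnt10b and Wnt1 had 17.4 RPKM in Dnmt1-/- and 0 listed for Dnmt1+/+. The median of unnamed entries of 200 bases or less was 231 RPKM in Dnmt1+/+ and 198 in Dnmt1-/-. Within 100 kb of Wnt10b and Wnt1, Rnd1, a small GTPase, was at 8.84 and 32.3 RPKM, Ccdc65 at 0.141 and 1.10, and Fkbp11 at 37.6 and 10.1. Wnt9a, 16178 bases from Wnt3a, had 0.477 RPKM in Dnmt1+/+ against 0.289 in Dnmt1-/-. Wnt3a was listed at 0 in both. Wnt3 and Wnt9b, 24353 bases apart on chromosome 11, were listed at 0 in both libraries, so this pair cannot show a shared change or its absence.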
